A study of Arabidopsis thaliana with 40 samples.

Results

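The cysteine synthase complex genes of Arabidopsis thaliana described here are 10 loci, taken from the 27826 probe sets of the data by their locus codes. They hold 5 serine acetyltransferases and 5 members of the O-acetylserine(thiol)lyase family. The acetyltransferases are SERAT1;1 (AT5G56760), SERAT2;1 (AT1G55920), SERAT2;2 (AT3G13110), SERAT3;1 (AT2G17640) and SERAT3;2 (AT4G35640). The lyase family members are OASA1 (AT4G14880), OASB (AT2G43750), OASC (AT3G59760), CYSC1 (AT3G61440) and DES1 (AT5G28030). Each locus had 1 probe set, and all 10 were measured on every array. Transcript levels came from 40 Affymetrix arrays of shoots, 4 biological replicates in each of 10 groups, and are log2 intensities. The groups were the lines 2cysprx, cyp20-3, oastlB and serat2;1 and wild type (WT), each after high light (HL) and in normal light (NL). All plants were 4 weeks old and had grown in soil in days of 8 h light and 16 h darkness. The light, in µmol quanta m-2 s-1, was 800 over 6 h for HL plants and 80 for NL plants. The labels name the lines and give no alleles, no back-crosses and no number of plants per sample. The line oastlB is named for OASB and serat2;1 for SERAT2;1, while 2cysprx and cyp20-3 are named for 2-Cys peroxiredoxin and the cyclophilin CYP20-3, their partners in the chloroplast module that the series is about. The question put to the genes was whether the remaining isoforms move where one is lost.

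Plants make cysteine in a pair of steps. Serine acetyltransferase turns serine and acetyl coenzyme A into O-acetylserine, and O-acetylserine(thiol)lyase exchanges the acetyl group for sulfide. The enzymes bind each other in the cysteine synthase complex, in which the acetyltransferase is active and the lyase is not, and O-acetylserine takes the complex apart while sulfide holds it together. Cytosol, plastids and mitochondria each have their own isoforms: SERAT1;1 and OASA1 in the cytosol, SERAT2;1 and OASB in plastids, SERAT2;2 and OASC in mitochondria. CYSC1 is a mitochondrial cyanoalanine synthase that uses cysteine to bind cyanide, and DES1 is a cytosolic enzyme that breaks cysteine down to sulfide. CYP20-3 is known to bind SERAT2;1 in the plastid.

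The labels of 3 lines were borne out by the transcripts they are named for. 2CPA (AT3G11630), a 2-Cys peroxiredoxin gene, read 5.09 to 5.63 in 2cysprx NL, against 10.47 to 10.86 in WT NL. 2CPB (AT5G06290), a further 2-Cys peroxiredoxin gene, was lowered less, at 6.59 to 7.06 against 8.99 to 9.35 in the same groups. CYP20-3 (AT3G62030) read 5.97 to 6.77 on the cyp20-3 arrays, against 10.41 to 10.66 in WT. On 1 array, 2cysprx HL replicate 2, 2CPA stood at 9.0, against 5.13 to 5.78 on the remaining HL arrays of the line. 2CPB was highest on that array too, at 7.67 against 6.41 to 7.06. The main differences that rest on 2cysprx HL are therefore also given without that array. The transcript of SERAT2;1 was not lower on the arrays labelled serat2;1, and the place of the probes relative to any insertion is not given, so that label is neither borne out nor contradicted. The 4 leaf mesophyll markers averaged 12.43 to 12.72 on every array, and the floral markers 1.92 to 2.40. The 5 root markers averaged 3.34 to 3.96, but PYK10 read 7.62 to 9.72 and the other root markers 1.29 to 4.54. The guard cell markers averaged 5.68 to 6.16, with KAT1 at 7.66 to 9.10 and the others at 3.57 to 6.80. Fewer cells of a type and less RNA per cell cannot be told apart in such samples.

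**Figure D1:**
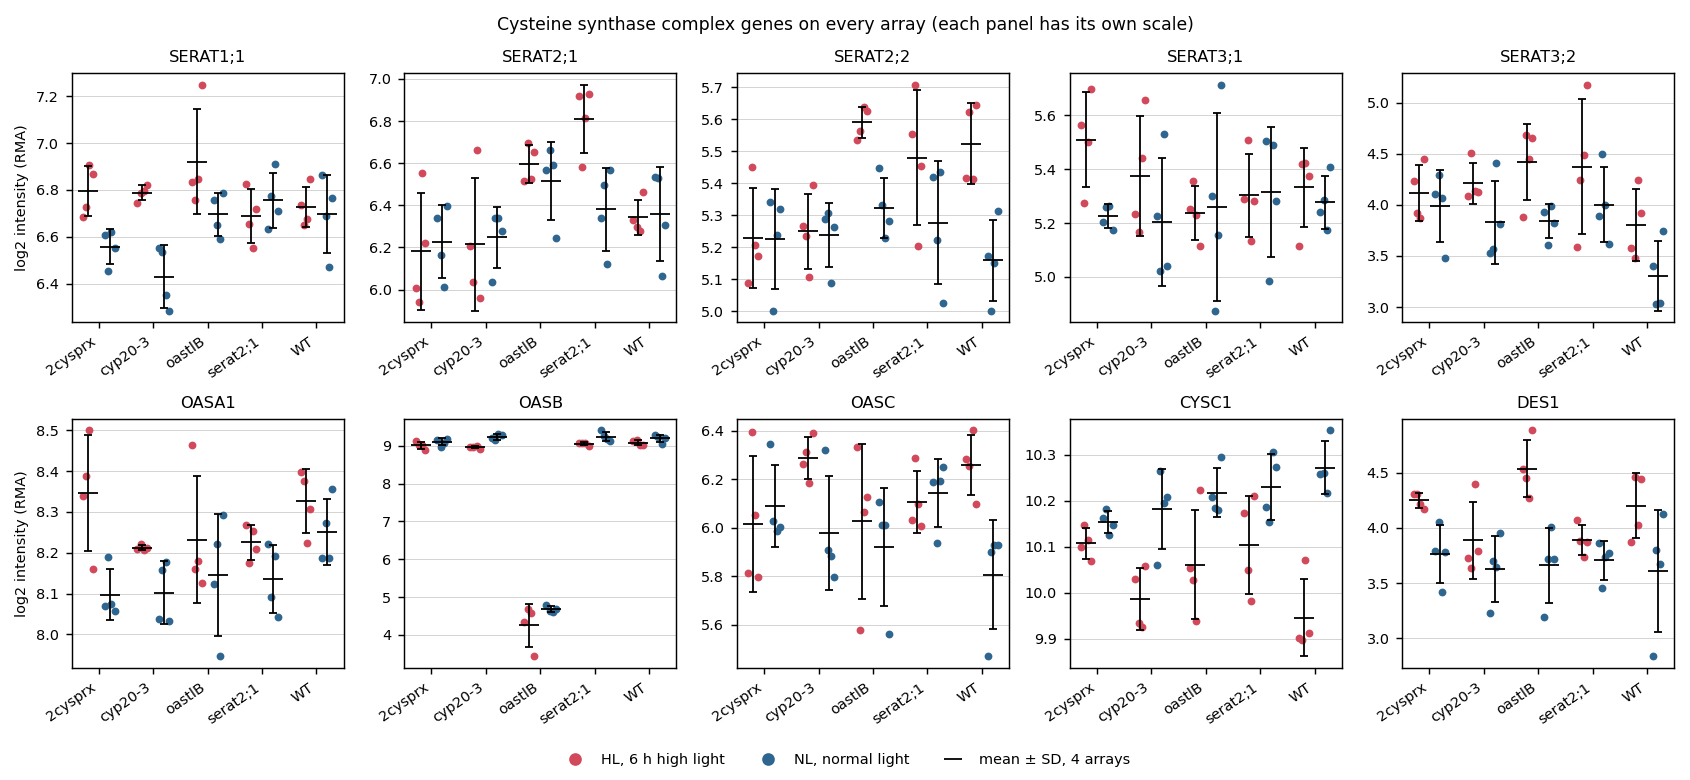
Log2 intensity (y axis, own scale per panel) of the 10 genes on all 40 arrays, by line (x axis), with HL in red left of NL in blue, where points are arrays and bars the mean ± SD of 4. OASB is far lower in oastlB than in every other line, and the rest of the panels span 0.25 to 1.12 log2 units between group means.

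OASB, the plastid lyase, was the transcript lost in oastlB. Its levels in oastlB HL were 4.34, 4.67, 4.57 and 3.44, against 9.13, 9.15, 9.03 and 9.01 in WT HL. In oastlB NL they were 4.79, 4.64, 4.61 and 4.69, against 9.28, 9.23, 9.05 and 9.22 in WT NL. The groups were far apart in either light, while 8.06% of all probe sets did not overlap in HL and 9.11% in NL. The difference was -4.83 ± 0.14 in HL (log2, standard error, adjusted p = 7.8e-24), which is 28.4-fold lower on the intensity scale. In NL it was -4.51 ± 0.14 (adjusted p = 7.2e-23), or 22.8-fold lower. The loci beside OASB in the TAIR10.1 order, AT2G43745 and AT2G43760, did not pass the test in NL, at -0.46 ± 0.18 (adjusted p = 0.165) and -0.06 ± 0.14 (adjusted p = 0.909).

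None of the other 9 genes passed the test in oastlB in either light. OASB was thus the 1 gene of the 10 called in NL, where 3.42% of all 27826 probe sets were called, and the 1 called in HL, where 0.855% were called. The median difference of the other 9 was 0.11 in HL and 0.05 in NL, and over all probe sets it was -0.00012 and -0.00095. At an unadjusted p under 0.05, 2 of the 9 were higher in HL and 1 in NL, where 13.8% and 15.3% of all probe sets lay under that p.

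Among the acetyltransferases in oastlB, the plastid isoform SERAT2;1 is the enzyme that OASB would bind. It read 6.52, 6.70, 6.53 and 6.65 in oastlB HL, against 6.33, 6.30, 6.28 and 6.46 in WT HL. The values did not overlap in HL, as in 8.06% of all probe sets. The two-sided exact permutation p was 0.0286, the smallest that 4 against 4 arrays can give. In the fit over all genes the difference of 0.26 ± 0.14 missed the threshold (adjusted p = 0.427), and its 95% interval ran from -0.03 to 0.54. In NL the values overlapped, at 6.57, 6.66, 6.59 and 6.24 in oastlB, against 6.54, 6.53, 6.06 and 6.31 in WT, and the difference was 0.16 (interval -0.12 to 0.44). The cytosolic SERAT1;1 differed by 0.20 in HL (interval 0.0028 to 0.39, adjusted p = 0.355) and by -0.00098 in NL (interval -0.19 to 0.19). On oastlB HL replicate 4, the array with the lowest OASB level, SERAT1;1 stood at 7.25, above the 6.76 to 6.85 of its 3 group members. The difference in HL without that array was 0.09. The mitochondrial SERAT2;2 differed by 0.07 in HL (interval -0.14 to 0.28) and 0.16 in NL (interval -0.05 to 0.37). SERAT3;1, a minor isoform, differed by -0.10 and -0.02, with intervals from -0.38 to 0.18 in HL and from -0.30 to 0.26 in NL.

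None of the remaining lyases was called in oastlB. The cytosolic OASA1 read 8.46, 8.16, 8.18 and 8.13 in oastlB HL, against 8.40, 8.38, 8.22 and 8.31 in WT HL. In NL it read 8.12, 8.22, 7.95 and 8.29 in oastlB, against 8.19, 8.27, 8.19 and 8.36 in WT. The groups overlapped in either light, and the intervals of the difference, -0.26 to 0.07 in HL and -0.27 to 0.06 in NL, hold no rise above 1.05-fold. The mitochondrial OASC differed by -0.23 in HL (interval -0.53 to 0.06) and by 0.12 in NL (interval -0.18 to 0.41). CYSC1 differed by 0.11 in HL (interval -0.02 to 0.25) and by -0.05 in NL (interval -0.19 to 0.08). DES1 had the wider intervals, with 0.33 in HL (interval -0.08 to 0.75) and 0.05 in NL (interval -0.36 to 0.47). Without oastlB HL replicate 4 the HL difference was 0.06 for CYSC1 and 0.22 for DES1.

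**Figure D2:**
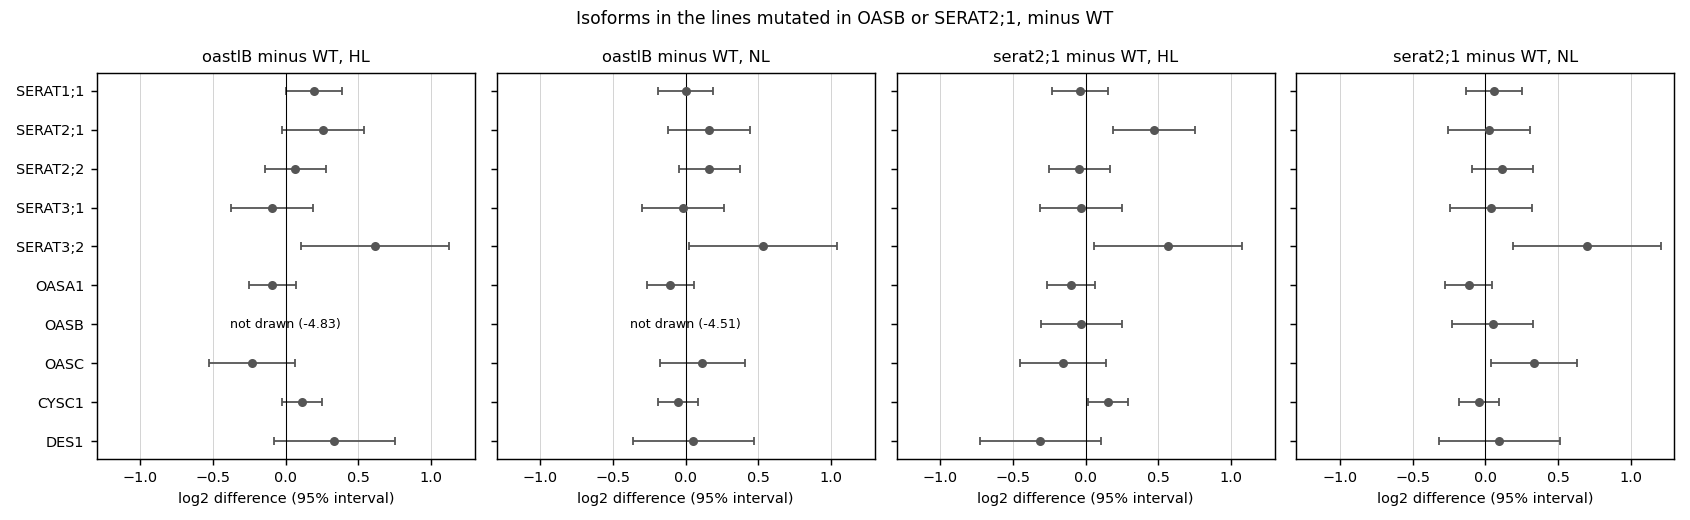
Log2 difference from WT (x axis) of each of the 10 genes (y axis) in oastlB and serat2;1, in HL and NL, where points are the differences and bars their 95% intervals, with OASB in oastlB given as a number. The other points lie between -0.31 and 0.70, and SERAT3;2 is right of 0 in all 4 panels without passing the test.

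No gene of the 10 was called on the arrays labelled serat2;1 in either light, against 0.956% of all probe sets in HL and 2.42% in NL. SERAT2;1 itself, the plastid acetyltransferase, read 6.92, 6.58, 6.82 and 6.93 in serat2;1 HL, against 6.33, 6.30, 6.28 and 6.46 in WT HL. The WT values were all lower, while 7.36% of all probe sets did not overlap in this comparison. The difference of 0.47 ± 0.14 missed the threshold (adjusted p = 0.101, interval 0.19 to 0.75). In NL the values overlapped, at 6.34, 6.50, 6.12 and 6.57 in serat2;1, against 6.54, 6.53, 6.06 and 6.31 in WT (difference 0.02, interval -0.26 to 0.31).

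The other 9 genes had a median difference of -0.04 in serat2;1 HL and 0.06 in serat2;1 NL. At an unadjusted p under 0.05 stood 3 of the 10 in HL and 2 in NL, where 13.3% and 14.5% of all probe sets did. The partner OASB differed by -0.03 in HL and 0.05 in NL, with intervals of -0.31 to 0.25 and -0.23 to 0.33. The pooled spread behind them takes in oastlB HL, where OASB had an SD of 0.56, against 0.03 to 0.12 in other groups. The mitochondrial lyase OASC read 6.19, 5.94, 6.19 and 6.25 in serat2;1 NL, against 5.47, 5.90, 5.93 and 5.93 in WT NL. These values did not overlap, as in 8.83% of all probe sets, and the difference of 0.34 ± 0.14 missed the threshold (adjusted p = 0.262). WT NL replicate 1 was the low array there, and without it the difference was 0.22. In HL, OASC differed by -0.15 (interval -0.45 to 0.14). The other acetyltransferases SERAT1;1, SERAT2;2 and SERAT3;1 differed by -0.04, -0.04 and -0.03 in HL and by 0.06, 0.12 and 0.04 in NL. CYSC1 differed by 0.16 in HL (adjusted p = 0.301) and -0.04 in NL, OASA1 by -0.10 and -0.11, and DES1 by -0.31 and 0.10.

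The lines oastlB and serat2;1 were also set against each other. In HL 1.21% and in NL 0.0252% of all probe sets were called, and among the 10 genes OASB was the only call, at -4.80 ± 0.14 in HL and -4.56 ± 0.14 in NL. Of the 8 genes after which neither line is named, the largest difference was that of DES1 in HL. DES1 read 4.53, 4.45, 4.27 and 4.88 in oastlB HL, against 4.07, 3.88, 3.73 and 3.87 in serat2;1 HL. The groups did not overlap (5.11% of all probe sets did not), and the difference of 0.65 ± 0.21 missed the threshold (adjusted p = 0.133). DES1 and SERAT1;1 were the 2 of these 8 at an unadjusted p under 0.05 in HL, where 10.8% of all probe sets were. SERAT1;1 differed by 0.23 (adjusted p = 0.306), and the other 6 genes of the 8 by -0.08 to 0.11 in HL. In NL the 8 differences ran from -0.22 to 0.05, none of them called, and 0 of the 8 stood at an unadjusted p under 0.05 by limma, against 7.36% of all probe sets. Apart from OASB none was without overlap in NL, where 4.15% of all probe sets were.

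The lines named for the partner proteins gave no call among the 10 genes. In 2cysprx this was so in HL, where 2.21% of all probe sets were called, and in NL, where 10.1% were. In cyp20-3 the shares of all probe sets were 2.24% in HL and 0.0467% in NL. By limma at an unadjusted p under 0.05, 2 genes in HL and 1 in NL stood out in 2cysprx (13.2% and 21.8% of all probe sets), and 1 and 2 in cyp20-3 (9.72% and 9.16%). In HL those were SERAT2;2 in each line and CYSC1 in 2cysprx (0.16, adjusted p = 0.269, and 0.15 without 2cysprx HL replicate 2). SERAT2;2 read 5.09, 5.45, 5.21 and 5.17 in 2cysprx HL and 5.27, 5.23, 5.11 and 5.39 in cyp20-3 HL, against 5.42, 5.62, 5.41 and 5.64 in WT HL. The cyp20-3 values were all under those of WT, in a comparison where 8.55% of all probe sets did not overlap. Of the 2cysprx values 1, that of replicate 2, reached above the lowest of WT. The differences of -0.30 ± 0.10 in 2cysprx (adjusted p = 0.150) and -0.27 ± 0.10 in cyp20-3 (adjusted p = 0.253) missed the threshold, and they share the WT arrays. Without 2cysprx HL replicate 2 the first was -0.37 (adjusted p = 0.070), and still 0 of the 10 genes were called. In cyp20-3 NL, SERAT1;1 read 6.55, 6.53, 6.35 and 6.29, against 6.86, 6.69, 6.47 and 6.76 in WT NL, a difference of -0.27 ± 0.10 (adjusted p = 0.343) between groups that overlapped.

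SERAT3;2, a minor acetyltransferase, had the widest range of group means after OASB, at 1.12 log2 units. Its level was low: it averaged 3.99 over all arrays, under the median of 4.74 over all probe sets and arrays. The floral marker AG read 2.68 to 3.65 on the same arrays, and the WT NL values of SERAT3;2, 3.03 to 3.74, lay near that level. They lay above the other floral markers, AP3 (1.32 to 2.53), PI (1.33 to 2.01) and SHP1 (1.55 to 2.40). It was highest in oastlB HL (4.42 ± 0.37, SD) and lowest in WT NL (3.30 ± 0.34), and WT stood last of the 5 genotypes in either light. In NL its levels were 4.10, 4.29, 4.07 and 3.48 in 2cysprx, 3.53, 3.57, 4.41 and 3.81 in cyp20-3, 3.94, 3.61, 3.99 and 3.82 in oastlB and 3.89, 4.50, 3.99 and 3.62 in serat2;1, against 3.40, 3.03, 3.04 and 3.74 in WT. Each line overlapped WT through WT NL replicate 4. The 4 differences, which share the WT arrays and so are not independent, were 0.68, 0.53, 0.53 and 0.70 in that order, each ± 0.25. Their adjusted p were 0.079, 0.522, 0.293 and 0.150, so none passed the test. In 2cysprx the gene was called when WT NL replicate 4 was left out (0.83, adjusted p = 0.047) or when 2cysprx NL replicate 4 was (0.85, adjusted p = 0.032).

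In HL the differences of SERAT3;2 from WT were 0.61 in oastlB, 0.57 in serat2;1, 0.41 in cyp20-3 and 0.31 in 2cysprx, with no call. Its levels were 3.89, 4.68, 4.45 and 4.66 in oastlB HL and 3.58, 4.24, 4.49 and 5.18 in serat2;1 HL, against 3.58, 3.48, 4.25 and 3.92 in WT HL. Each line overlapped WT, and the serat2;1 arrays were the most spread, with replicate 4 at 5.18. Without that array the difference of serat2;1 was 0.30. Without 2cysprx HL replicate 2 the difference of 2cysprx was 0.38. The neighbouring locus of SERAT3;2 in the TAIR10.1 order is PSAT1, and that of SERAT3;1 is PSAT2, both plastid phosphoserine aminotransferases of the serine supply.

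The response to light was the second comparison, HL minus NL within a genotype. Whether values overlapped is given for light only as a description, without the share of all probe sets that did not overlap. In WT, 4 of the 10 genes were called, against 19.8% of all 27826 probe sets. SERAT2;2, OASC and DES1 rose, as did 10.3% of all probe sets, and CYSC1 fell, as did 9.58%. The median difference over the 10 was 0.07, and over all probe sets -0.02. The mitochondrial acetyltransferase SERAT2;2 read 5.42, 5.62, 5.41 and 5.64 in WT HL, against 5.17, 5.0, 5.15 and 5.31 in WT NL. The groups did not overlap, and the difference was 0.36 ± 0.10 (adjusted p = 0.010). The mitochondrial lyase OASC read 6.28, 6.26, 6.40 and 6.10 in WT HL, against 5.47, 5.90, 5.93 and 5.93 in WT NL, again apart, with a difference of 0.45 ± 0.14 (adjusted p = 0.023). That call ended without WT NL replicate 1 (0.34, adjusted p = 0.128) and without WT HL replicate 3 (0.41, adjusted p = 0.075).

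CYSC1, the mitochondrial cyanoalanine synthase, read 9.90, 9.90, 10.07 and 9.91 in WT HL, against 10.26, 10.26, 10.22 and 10.35 in WT NL. Every HL array was under every NL array, and the difference was -0.33 ± 0.07 (adjusted p = 0.0005). DES1, the cysteine desulfhydrase, read 3.88, 4.46, 4.02 and 4.44 in WT HL, against 2.84, 3.80, 3.67 and 4.13 in WT NL. These groups overlapped, and the difference was 0.59 ± 0.21 (adjusted p = 0.037). The level of DES1 was low as well, with an average of 3.91 over all arrays, under the median of 4.74 over all probe sets and arrays. The call of DES1 was lost without WT NL replicate 1 (0.33, adjusted p = 0.268), WT NL replicate 3 (0.61, adjusted p = 0.055), WT HL replicate 2 (0.50, adjusted p = 0.121) or WT HL replicate 4 (0.51, adjusted p = 0.119). The plastid pair and the cytosolic pair were not called in WT. SERAT2;1 differed by -0.02 (interval -0.30 to 0.27), OASB by -0.11 (interval -0.39 to 0.16), SERAT1;1 by 0.03 (interval -0.16 to 0.22) and OASA1 by 0.07 (interval -0.09 to 0.24). SERAT3;2 differed by 0.50 (interval -0.01 to 1.01) and SERAT3;1 by 0.06 (interval -0.22 to 0.34). The OASB interval again rests on the pooled spread that takes in oastlB HL (SD 0.56). In cyp20-3, OASB read 8.93 to 8.99 in HL, against 9.14 to 9.30 in NL, and was not called. In serat2;1 it read 8.99 to 9.08 in HL, against 9.13 to 9.41 in NL, also without a call. In WT and 2cysprx the HL and NL values of OASB overlapped.

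Markers of cell types moved with light too. Of the 4 guard cell markers the potassium channel KAT1 rose in all 5 genotypes (0.50 to 0.95), MYB60 fell in cyp20-3 (-0.64) and oastlB (-0.57), and FAMA and HT1 were not called. Of the 4 mesophyll markers GAPB, a photosynthetic glyceraldehyde phosphate dehydrogenase, rose in all 5 (0.26 to 0.55). RCA, the rubisco activase, rose in all but cyp20-3 (0.21 there, adjusted p = 0.0504), LHCB1.3 fell in cyp20-3 (-0.29), and RBCS1A was not called. RBCS1A stood at 13.81 with an SD of 0 in HL in every genotype. That is its highest value on any array, so the test could not show a rise beyond it. Of the 5 root markers PYK10 fell in 2cysprx (-0.77) and cyp20-3 (-0.66) and PIN2 in oastlB (-0.45) and WT (-0.63). The 4 floral markers gave 0 calls in any genotype, and 0 stood at an unadjusted p under 0.05 by limma. Of all probe sets, 8.55% (2cysprx) to 19.8% (WT) were called for light. The part of these markers in the light responses was not tested.

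**Figure D3:**
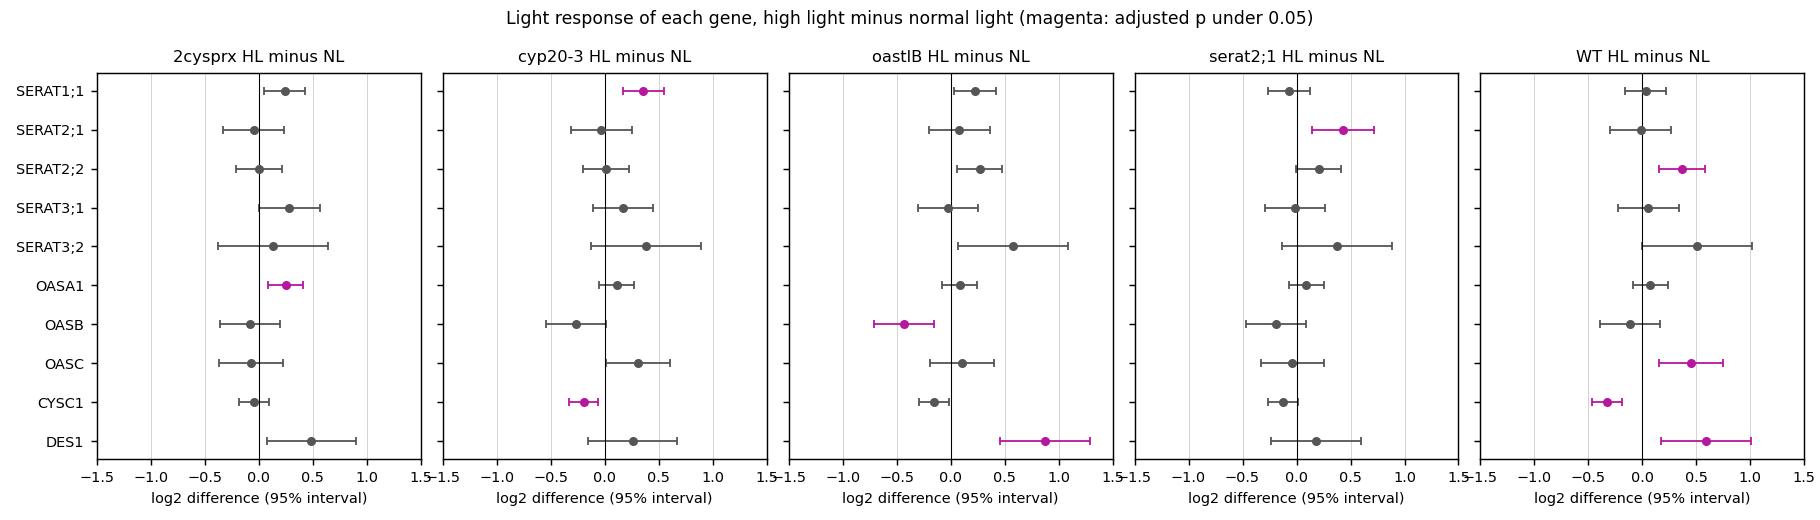
Log2 difference HL minus NL (x axis) of the 10 genes (y axis) in each genotype, where points are differences, bars 95% intervals, and magenta marks an adjusted p under 0.05. WT has 4 calls (SERAT2;2, OASC and DES1 up, CYSC1 down), oastlB and cyp20-3 2 each, and 2cysprx and serat2;1 1 each.

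In oastlB, 2 of the 10 genes were called for light, against 16.2% of all probe sets. DES1 rose, at 4.53, 4.45, 4.27 and 4.88 in oastlB HL, against 3.20, 3.72, 4.00 and 3.72 in oastlB NL, without overlap. The difference was 0.87 ± 0.21 (adjusted p = 0.0021), and the call held without each array in turn. OASB, read here at the low level left in this line, fell by 0.43 (adjusted p = 0.026). That fall lay on oastlB HL replicate 4, which read 3.44, under the 4.34 to 4.79 of its 7 companions: without it the difference was -0.16 (adjusted p = 0.243). The call was also lost without oastlB NL replicate 1 (-0.39, adjusted p = 0.079) or replicate 4 (-0.43, adjusted p = 0.052). SERAT2;2, at 5.54, 5.56, 5.64 and 5.62 in oastlB HL, against 5.45, 5.33, 5.23 and 5.28 in oastlB NL, did not overlap and missed the threshold (0.27 ± 0.10, adjusted p = 0.077), though it was called among the brighter probe sets (adjusted p = 0.035). Without oastlB HL replicate 1, SERAT3;2 was called as well (0.76, adjusted p = 0.046), and without oastlB HL replicate 4 CYSC1 was (-0.21, adjusted p = 0.038).

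On the serat2;1 arrays SERAT2;1 was the 1 gene called for light, against 11.4% of all probe sets. It rose without overlap, with the levels given above, by 0.43 ± 0.14 (adjusted p = 0.038). The call ended without NL replicate 1 (0.42, adjusted p = 0.084), NL replicate 3 (0.34, adjusted p = 0.156), HL replicate 1 (0.39, adjusted p = 0.098), HL replicate 3 (0.43, adjusted p = 0.071) or HL replicate 4 (0.39, adjusted p = 0.110). It also ended in a fit of the compared arrays alone (adjusted p = 0.093).

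In cyp20-3, 2 genes were called for light, against 17.8% of all probe sets. SERAT1;1, the cytosolic acetyltransferase, read 6.75, 6.79, 6.80 and 6.82 in cyp20-3 HL, against 6.55, 6.53, 6.35 and 6.29 in cyp20-3 NL. It rose by 0.36 ± 0.10 (adjusted p = 0.0063) without overlap, and the call held without each array in turn. CYSC1 read 10.03, 9.93, 9.93 and 10.06 in cyp20-3 HL, against 10.06, 10.27, 10.20 and 10.21 in cyp20-3 NL, so that HL replicate 4 and NL replicate 1 nearly met. It fell by 0.20 (adjusted p = 0.041), and the call was lost without any of 6 of the 8 arrays, NL replicates 2, 3 and 4 and HL replicates 1, 2 and 3 (-0.21 to -0.17, adjusted p = 0.0501 to 0.130).

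In 2cysprx, OASA1 was the 1 gene called for light, against 8.55% of all probe sets. The cytosolic lyase read 8.34, 8.39, 8.50 and 8.16 in 2cysprx HL, against 8.07, 8.19, 8.07 and 8.06 in 2cysprx NL, with overlap, and rose by 0.25 ± 0.08 (adjusted p = 0.045). Without 2cysprx HL replicate 2 it did not pass (0.24, adjusted p = 0.107) and 0 genes were called. The call was also lost without NL replicates 1, 3 or 4 or HL replicates 1 or 3 (0.20 to 0.25, adjusted p = 0.078 to 0.179). DES1 was higher in 2cysprx HL without overlap, at 4.31, 4.30, 4.22 and 4.17, against 3.79, 4.05, 3.42 and 3.79 in 2cysprx NL, and missed the threshold (0.49 ± 0.21, adjusted p = 0.152). Without replicate 2 the difference was 0.47. Gene by gene, the HL minus NL difference of DES1 was 0.87 in oastlB, 0.49 in 2cysprx, 0.26 in cyp20-3, 0.18 in serat2;1 and 0.59 in WT.

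The light response of none of the 10 differed from that of WT at an adjusted p under 0.05, in a test of the difference itself. The shares of all probe sets called were 6.09% for 2cysprx, 0.855% for cyp20-3, 2.8% for oastlB and 2.29% for serat2;1. At an unadjusted p under 0.05 by limma, 3, 2, 0 and 3 of the 10 genes stood out in that order (17.7%, 9.5%, 16% and 16.1% of all probe sets). The smallest adjusted p was that of CYSC1 in 2cysprx, whose response was -0.05, against -0.33 in WT, a difference of 0.28 ± 0.10 (adjusted p = 0.080). It was called without WT HL replicate 3 (0.32, adjusted p = 0.047), with an intensity trend in the prior variance (adjusted p = 0.026) and among the brighter probe sets (adjusted p = 0.027). Without 2cysprx HL replicate 2 it was 0.27 (adjusted p = 0.134). The responses of OASC in 2cysprx and serat2;1 were -0.08 and -0.04, against 0.45 in WT, and the differences of -0.53 ± 0.21 (adjusted p = 0.137) and -0.49 ± 0.21 (adjusted p = 0.217) missed the threshold. Without 2cysprx HL replicate 2 the OASC difference was -0.66 (adjusted p = 0.0502). The response of SERAT2;1 in serat2;1 differed from that in WT by 0.45 ± 0.20 (adjusted p = 0.247). So a call of light in 1 genotype and none in another was not shown to be a difference between them for any of the 10.

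Ordered by group mean, the genes ran in different orders. DES1 was highest in oastlB HL (4.53 ± 0.26, SD), then 2cysprx HL (4.25 ± 0.07) and WT HL (4.20 ± 0.30), and all 5 HL means were above all 5 NL means, of which WT NL was the lowest (3.61 ± 0.55). CYSC1 ran the other way, with all 5 HL means (9.95 to 10.11) below all 5 NL means (10.15 to 10.27). OASB had its lowest means in oastlB, and in the other 4 genotypes every HL mean (8.96 to 9.08) was below every NL mean (9.10 to 9.24). Of the 9 steps between neighbours in each order, the gap passed the larger SD of the groups at 1 step for SERAT1;1, SERAT2;1, SERAT3;2, OASB, CYSC1 and DES1, and at none for SERAT2;2, SERAT3;1, OASA1 and OASC.

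The probe sets whose 10 group means ran most like those of 3 genes were looked up. For DES1 they were RXW8 (AT1G58520), SIGE (AT5G24120), which encodes a sigma factor of plastid transcription, and MTP11 (AT2G39450), a manganese transporter, each with a Pearson r of 0.98. For SERAT1;1 they were SCAMP4 (AT1G03550, r = 0.95), CYP89A5 (AT1G64950, r = 0.94) and AT4G02465 (r = 0.92). For SERAT3;2 they were AT3G27027 (r = 0.94), AT1G10890 (r = 0.93) and AT1G61490 (r = 0.92). These are the highest values among all other probe sets, over 10 points from the same arrays, and are given as a description.

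Outside the 10 genes, 4 further members of the lyase family were followed. In oastlB NL 1 of them was called, against 3.42% of all probe sets. CS26 (AT3G03630), a plastid S-sulfocysteine synthase, read 7.02, 7.35, 7.32 and 7.08 in oastlB NL, against 6.58, 6.71, 6.53 and 6.49 in WT NL. The groups did not overlap, as in 9.11% of all probe sets, and the difference was 0.61 ± 0.11 (adjusted p = 0.00091). The call held without each array in turn (0.56 to 0.67) and was lost in a fit of the compared arrays alone (adjusted p = 0.149). In oastlB HL the level was 6.70, 6.55, 6.35 and 6.34, against 6.59, 6.65, 6.24 and 6.57 in WT HL, with overlap and no call (-0.03, adjusted p = 0.943). The light response of CS26 in oastlB, -0.71, differed from that in WT by -0.64 ± 0.15 (adjusted p = 0.017, and 0.086 in a fit of the compared arrays alone). The response of CS26 in 2cysprx was called lower than that in WT too. That call was lost without 2cysprx HL replicate 3 (-0.51, adjusted p = 0.052). CS26 rose in 2cysprx NL as well. It read 7.61, 7.61, 7.48 and 7.28, a difference of 0.92 ± 0.11 from the same WT arrays (adjusted p = 4.8e-07), and it was 0.40 in cyp20-3 NL (adjusted p = 0.167) and 0.31 in serat2;1 NL (adjusted p = 0.137). Between oastlB and serat2;1 in NL it did not pass the test (0.30 ± 0.11, adjusted p = 0.460). The other family members CYSD1, CYSD2 and OASA2 were not called in oastlB NL, at 0.02, -0.28 and -0.36. In HL 0 of the 4 were called in oastlB or stood at an unadjusted p under 0.05 by limma, against 0.855% and 13.8% of all probe sets. CYSD2, the locus next to DES1, fell in the WT light response (-0.63 ± 0.15, adjusted p = 0.0022).

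**Figure D4:**
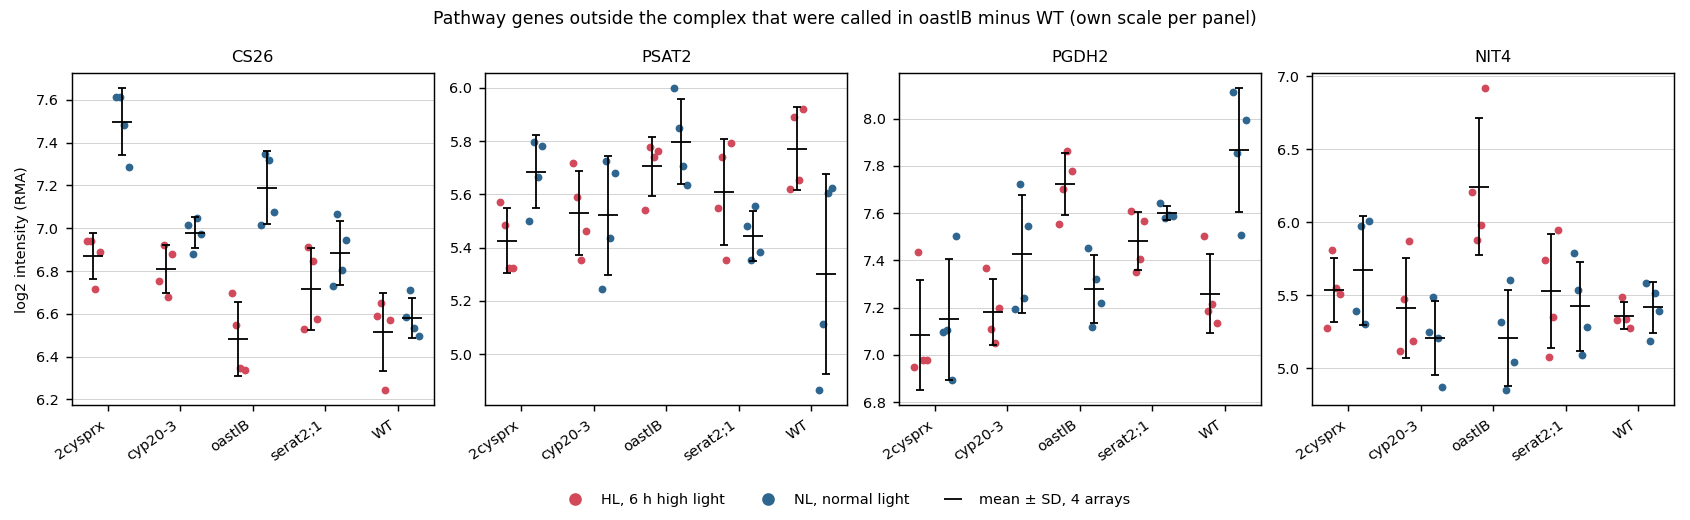
Log2 intensity (y axis, own scale per panel) of CS26, PSAT2, PGDH2 and NIT4 on all 40 arrays, by line (x axis), with HL in red left of NL in blue, where points are arrays and bars the mean ± SD of 4. CS26 in NL is above WT in all 4 lines, called in 2cysprx and oastlB, and NIT4 is highest in oastlB HL with replicate 4 at 6.92.

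Of 6 genes for serine synthesis in the plastid, which supplies the substrate of the acetyltransferases, 1 rose and 1 fell in oastlB NL. The list median was 0.12, and 3.42% of all probe sets were called in that comparison. PGDH2 (AT1G17745), a phosphoglycerate dehydrogenase, read 7.45, 7.12, 7.32 and 7.22 in oastlB NL, against 8.11, 7.85, 7.51 and 7.99 in WT NL. Each oastlB array was below each WT array, and the difference was -0.59 ± 0.13 (adjusted p = 0.0081). Of all probe sets 9.11% did not overlap in that comparison. The call of PGDH2 held without each array in turn (-0.71 to -0.51) and was lost in a fit of the compared arrays alone (adjusted p = 0.171). With HL the gene rose in oastlB (0.45 ± 0.13, adjusted p = 0.016) and fell in WT (-0.61 ± 0.13, adjusted p = 0.00086), a difference in response of 1.05 ± 0.19 (adjusted p = 0.0017). The rise in oastlB was lost without oastlB NL replicate 2 (0.39, adjusted p = 0.065) or HL replicate 3 (0.40, adjusted p = 0.058). PGDH2 was also lower in 2cysprx NL than in the same WT arrays (-0.72 ± 0.13, adjusted p = 0.00031), a call lost in a fit of the compared arrays alone (adjusted p = 0.058). PSAT2 (AT2G17630) rose by 0.50 ± 0.13 in oastlB NL (adjusted p = 0.030). This was lost in a fit of the compared arrays (adjusted p = 0.302) and without oastlB NL replicates 1, 2 or 3 or WT NL replicates 1 or 2 (0.35 to 0.53, adjusted p = 0.060 to 0.174). In HL 0 of the 6 were called in oastlB, by limma, and 1 stood at an unadjusted p under 0.05 (0.855% and 13.8% of all probe sets).

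NIT4 (AT5G22300), a nitrilase that acts on the product of CYSC1, was the 1 of 4 genes of cyanoalanine and cysteine turnover called in oastlB HL. Of all probe sets 0.855% were called in that comparison. NIT4 read 6.20, 5.88, 5.98 and 6.92 in oastlB HL, against 5.33, 5.49, 5.34 and 5.28 in WT HL. The groups did not overlap, as in 8.06% of all probe sets, and the difference was 0.88 ± 0.21 (adjusted p = 0.037). The call was lost without oastlB HL replicate 4 (0.66, adjusted p = 0.198), without any 1 of the 4 WT HL arrays (0.86 to 0.93, adjusted p = 0.064 to 0.108) and in a fit of the compared arrays alone (adjusted p = 0.142). In oastlB NL 0 of the 4 were called or stood at an unadjusted p under 0.05 by limma, against 3.42% and 15.3% of all probe sets.

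Of the 12 genes of sulfate activation and reduction, 1 was called in oastlB NL and 0 in oastlB HL, against 3.42% and 0.855% of all probe sets. At an unadjusted p under 0.05 by limma stood 4 and 1 of the 12 (15.3% and 13.8% of all probe sets). The call was APR1 (AT4G04610), an adenosine phosphosulfate reductase that makes sulfite for the sulfide used by the lyases, at -0.41 ± 0.12 (adjusted p = 0.046). It was lost without oastlB NL replicates 2, 3 or 4 or WT NL replicates 1, 2 or 4 (-0.43 to -0.33, adjusted p = 0.072 to 0.185), in a fit of the compared arrays alone (adjusted p = 0.213) and with array weights (adjusted p = 0.074). Of the 2 glutathione synthesis genes 0 were called in oastlB in either light, with 1 at an unadjusted p under 0.05 in NL by limma. Of the 13 sulfur starvation markers 0 were called in oastlB NL, with 1 at an unadjusted p under 0.05 by limma, and 1 was called in oastlB HL, the vacuolar sulfate transporter SULTR4;2 (0.63 ± 0.15, adjusted p = 0.038). That was lost in a fit of the compared arrays alone (adjusted p = 0.084) and without oastlB HL replicates 2, 3 or 4 or WT HL replicates 2, 3 or 4 (0.57 to 0.65, adjusted p = 0.074 to 0.142).

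On the serat2;1 arrays 0 genes of the lyase, sulfate, serine, glutathione and cyanoalanine lists were called in either light by limma. Of all probe sets 0.956% were called on these arrays in HL and 2.42% in NL. At an unadjusted p under 0.05 stood 0, 1, 0, 0 and 0 genes of these lists in HL, where 13.3% of all probe sets did. In NL it was 1, 3, 1, 0 and 0, where 14.5% did. Of the 13 sulfur starvation markers 0 were called in serat2;1 NL, where 0 stood at that p either, and 2 rose in serat2;1 HL. SDI1 (AT5G48850), a gene induced by sulfur deficiency, read 4.79, 5.49, 5.21 and 4.08 in serat2;1 HL, against 3.99, 3.90, 3.71 and 3.57 in WT HL. The groups did not overlap, as in 7.36% of all probe sets, and the difference was 1.10 ± 0.26 (adjusted p = 0.033). SDI1 was also higher in cyp20-3 HL, at 4.68, 5.26, 4.74 and 4.48, against the same WT arrays (1.00 ± 0.26, adjusted p = 0.029). It was lower in oastlB HL than in serat2;1 HL (-1.15 ± 0.26, adjusted p = 0.016). Each of these calls ended when single arrays were left out. The call against WT was lost without HL replicates 2 or 3 of the line or WT HL replicates 2, 3 or 4 (0.90 to 1.14, adjusted p = 0.055 to 0.120). The cyp20-3 call was lost without cyp20-3 HL replicates 2 or 3 or WT HL replicates 2, 3 or 4 (0.84 to 1.03, adjusted p = 0.051 to 0.157). The call between the lines was lost without oastlB HL replicate 4 or serat2;1 HL replicates 2 or 3 (-1.05 to -0.95, adjusted p = 0.079 to 0.117). MSA1 (AT1G36370), a serine hydroxymethyltransferase, was the other, at 0.42 ± 0.11 (adjusted p = 0.042). It was lost without serat2;1 HL replicates 1, 2 or 3 or any of the 4 WT HL arrays (0.36 to 0.45, adjusted p = 0.052 to 0.178). In a fit of the compared arrays alone SDI1 and MSA1 were lost in serat2;1 HL (adjusted p = 0.173 and 0.207).

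In the light response of WT the neighbouring steps moved in both directions, as did 10.3% of all probe sets upward and 9.58% downward. Of the 12 genes of sulfate activation and reduction 3 rose, led by the reductase APR2 (1.24 ± 0.11, adjusted p = 4.8e-10), with APR3 at 0.42 and APS2 at 0.24. Without WT HL replicate 1, APR3 was lost (0.33, adjusted p = 0.070). Of the 6 serine genes 3 rose, PGDH1 by 0.35, PSAT2 by 0.47 and PSP1 by 0.35, beside the fall of PGDH2. PGDH1 was lost without WT NL replicate 4 (0.28, adjusted p = 0.073) and PSAT2 without WT NL replicate 1 (0.32, adjusted p = 0.091). Both genes of glutathione synthesis, which uses the cysteine made, fell: GSH1 by 0.29 and GSH2 by 0.37. Of the 13 sulfur starvation markers 4 rose, led by GGCT2;1, a glutathione-degrading enzyme (1.76 ± 0.17, adjusted p = 8.4e-10), and LSU2 (1.40 ± 0.23, adjusted p = 2.7e-05). The other 2 were SDI2 at 0.37 and LSU3 at 0.54. SDI2 was lost without WT NL replicates 1, 2 or 3 or WT HL replicates 1, 2 or 3 (0.28 to 0.40, adjusted p = 0.063 to 0.195), and LSU3 without WT NL replicates 1, 2 or 4 or WT HL replicates 2 or 3 (0.40 to 0.52, adjusted p = 0.087 to 0.189). Of the 4 genes of cyanoalanine and cysteine turnover STR1, a sulfurtransferase, rose by 0.30.

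In 2cysprx NL 4 of the 12 sulfate genes were called, against 10.1% of all probe sets, with APR2 (0.53) and APS2 (0.20) up and APS4 (-0.61) and APR1 (-0.43) down. APS2 was lost without 2cysprx NL replicates 1 or 2 or WT NL replicates 2, 3 or 4 (0.17 to 0.19, adjusted p = 0.091 to 0.151). APR1 was lost without 2cysprx NL replicate 2 (-0.41, adjusted p = 0.053) or WT NL replicate 1 (-0.35, adjusted p = 0.084). Of the mesophyll and root markers GAPB (0.22) and PYK10 (0.66) rose in 2cysprx NL as well, and their part in these differences was not tested. In 2cysprx HL, where 2.21% of all probe sets were called, the calls outside the 10 genes were APR3 (-0.54 ± 0.12, adjusted p = 0.0099) and SULTR4;2 (0.71 ± 0.15, adjusted p = 0.0068). Without 2cysprx HL replicate 2 they were -0.57 and 0.76 and both calls held. APR3 was lost without WT HL replicate 1 (-0.46, adjusted p = 0.057). In cyp20-3 no gene of these lists was called in NL, and SDI1 was the only call in HL, where 0.0467% and 2.24% of all probe sets were called. At an unadjusted p under 0.05 by limma stood 1, 1, 2, 0, 1 and 0 genes of the lyase, sulfate, serine, glutathione, starvation and cyanoalanine lists in cyp20-3 NL, against 9.16% of all probe sets.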

How the data were processed

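The authors deposited log2 expression values for 40 Affymetrix arrays, normalized by RMA per the submitters' processing notes. The RMA version, the kind of array and how its probes were grouped were not given in the sources used here. Values were used as deposited, with no filter. The groups follow the labels, and no column was left unmapped. Arrays correlated with each other at 0.973 to 0.993 and 0 pairs were identical, and the number of arrays limits the precision. All locus codes of the 10 genes were found in the RefSeq table of TAIR10.1, which matched 27241 of the 27826 probe sets.

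One limma model (R 4.3.3, limma 3.58.1) with a mean for each of the 10 groups was fitted to all probe sets, with 30 residual and 3.90 prior degrees of freedom. It gave 19 comparisons: HL minus NL in each genotype, each line minus WT in each light, the difference of each line's light response from that of WT, and oastlB minus serat2;1 in each light. P-values were adjusted by Benjamini and Hochberg over all probe sets within a comparison. Called means an adjusted p under 0.05, and intervals are 95%. Standard errors come from the pooled fit. Two-sided exact permutation tests of 4 against 4 arrays cannot go below 0.0286. On simulated data for oastlB minus WT in NL over 27826 probe sets the test was checked before use.

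All 10 genes are named. The lists hold 71 genes in all, counting the 10 genes, 2CPA, 2CPB, CYP20-3 and the cell type markers. The other lists cover the further lyase family, sulfate activation and reduction, plastid serine synthesis, glutathione synthesis, sulfur starvation, and cyanoalanine and cysteine turnover. Of each, at most the 2 largest called rises and falls without overlap were to be named, and further names were chosen after their values were seen. Patterns like a gene were ranked by Pearson r over group means, for the 3 genes with the widest range once the groups of the line named for a gene are left out. The genes and lists were chosen with earlier results of these data known.

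Replicate numbers recur in every group. Deviations of same-numbered arrays correlated at -0.112 to 0.116, and in 0 of 15 comparisons did every pair pass 0.1, so the arrays are treated as unpaired. The labels call the replicates biological, without naming plants or pots. Counts of called cysteine synthase complex genes were recomputed after leaving out each array, with array weights, with cyclic loess and on compared arrays alone. Further fits used probe sets at or above the median mean level, the replicate number as a block, or a prior variance that follows intensity. Counts over the other lists were recomputed only with the block and with that prior variance. For named genes of those lists, calls lost in other fits are given where they were checked. Cell type markers, list medians, group orders and pattern rankings were not recomputed.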

Additional observations from a re-analysis of the deposited data

Results flagged for a closer look

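Among the 100 sets of 4 arrays that the 10 genes and 10 groups make, 7 held an array far from the other 3, as judged by its gap relative to the range of the group. Chance flags about 1 in 20 groups. They were SERAT3;1 in WT HL replicate 1 (5.12), SERAT3;2 in cyp20-3 HL replicate 2 (4.51), OASA1 in 2cysprx NL replicate 2 (8.19) and in oastlB HL replicate 1 (8.46), OASC in 2cysprx NL replicate 1 (6.34) and in WT NL replicate 1 (5.47), and CYSC1 in WT HL replicate 3 (10.1). The low OASC value of WT NL replicate 1 bears on the light response of OASC in WT, which was not called without that array. The high CYSC1 value of WT HL replicate 3 bears on the difference in light response between 2cysprx and WT, which was called without it.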

How the results depend on the processing

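OASB in oastlB was the only call of the 10 genes against WT or serat2;1, and its count was the same under all alternatives. Counts of called genes for light moved in a fit of the compared arrays only, to 0 in 2cysprx and serat2;1, 1 in cyp20-3 and oastlB and 3 in WT, where DES1 was lost (adjusted p = 0.159), and under cyclic loess to 1 in cyp20-3. For the difference in light response of 2cysprx from WT, 1 gene, CYSC1, was called with an intensity trend and among brighter probe sets. Leaving out each array in turn gave 0 to 1 calls for light in 2cysprx and serat2;1, 1 to 2 in cyp20-3, 1 to 3 in oastlB and 2 to 4 in WT, 0 to 1 in 2cysprx minus WT in NL and 0 to 1 for the 2cysprx difference in response. The other 12 counts did not move. With a replicate block the count of the 10 genes called was the same in all 19 comparisons, and 5 counts over the other lists moved, while 128 did not. With an intensity trend 10 of those moved and 123 did not. Some small differences changed sign. With array weights in oastlB NL, SERAT1;1 was 0.0228 and DES1 -0.0559. With each array left out, the ranges in oastlB NL were -0.0766 to 0.0549 for SERAT1;1, -0.17 to 0.11 for SERAT3;1 and -0.21 to 0.22 for DES1. In serat2;1 NL they were -0.0158 to 0.12 for SERAT1;1, -0.0756 to 0.11 for SERAT2;1, -0.0251 to 0.15 for SERAT3;1, -0.00374 to 0.0874 for OASB and -0.16 to 0.27 for DES1. In serat2;1 HL they were -0.0841 to 0.00708 for SERAT1;1, -0.12 to 0.0476 for SERAT2;2 and -0.10 to 0.0269 for SERAT3;1. The cause of these changes was not tested. SERAT3;2 and DES1 lay below the median probe set and so have no value among the brighter ones.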
